A study of Mus musculus with 13 samples.

Results

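The genes described here are those of the cytosolic ribosome of the mouse, the particle that translates nuclear-encoded messages. They were taken by symbol, as every gene named Rpl or Rps with a number, together with Rplp0, Rplp1, Rplp2 and Rpsa, without pseudogenes and without the Rps6 kinases. The rule found 90 genes among the 36082 rows of the table, 54 of the large (60S) subunit, stalk genes included, and 36 of the small (40S) subunit. All 90 had values, and 83 passed the filter for testing, which asked for at least 1 FPKM in at least 2 libraries. The 7 that did not pass were Rpl10l, Rpl32l, Rpl39l, Rpl3l, Rpl6l, Rps12l1 and Rps3a3.

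RNA was sequenced from aortas of mice in 4 groups. Vehicle mice drank water alone (4 libraries, an arm of 11 mice). Fasudil mice received 150 mg/kg/day of fasudil in water (3 libraries, an arm of 10 mice), and BAPN mice received 0.25% β-aminopropionitrile in water (an arm of 12 mice). In the combined group mice drank BAPN alone for 1 week and then BAPN with fasudil at the same doses (3 libraries), the schedule the series names as its model of aortic dissection. BAPN blocks lysyl oxidases, the enzymes that tie collagen and elastin fibres together. Fasudil is a kinase inhibitor that relaxes smooth muscle. The experiment lasted 4 weeks, after 1 week in which the animals got used to the facility. Strain, age and sex are not given in the sources used here, and the labels do not say whether each library came from its own animal. The titles of the BAPN libraries share 1 sample number, where those of the other groups differ. The p-values below therefore measure only the spread between these libraries, which may be technical.

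Each ribosome needs its proteins in near-equal numbers, and their messages are among the most abundant in most cells. Most of these messages begin with a C followed by a run of pyrimidines, the 5′ terminal oligopyrimidine (TOP) tract, through which the mTORC1 kinase controls their translation and stability. Several ribosomal proteins have duties outside the ribosome: Rpl5 and Rpl11 bind the p53 ligase Mdm2, and Rps6 is the substrate of the S6 kinases. The mitochondrial ribosome is a separate particle with its own nuclear-encoded proteins, whose symbols begin with Mrpl and Mrps.

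Promoter sequences from RefSeq (build GRCm38.p6) matched 65 of the 90 genes by symbol, 61 of them tested. A run of at least 8 C or T bases touching the 25 bases on either side of the annotated start was found in 34 of these 61 genes (55.7%). The same was found in 18 of 69 mitochondrial ribosomal protein genes (26.1%) and in 6475 of all 27025 promoters (24%). The letters CCGGAAG, a core of sites for ETS-family factors, were found on either strand of the 300 bases in 24 of the 61 (39.3%), 25 of the 69 mitochondrial ones (36.2%) and 9.12% of all promoters. The start given by RefSeq need not be the one used in the aorta. The windows below run 5′ to 3′ on the gene's strand, 25 bases before and 25 from the start onward, with the longest C or T run in capitals (the first where runs tie). They show members that rose, members with high fold changes, Rpl27a (chosen after its long run was seen), and paralogs.
Rpl12, chr2:32961687-32961736, plus strand: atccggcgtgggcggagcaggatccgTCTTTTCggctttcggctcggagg
Rps15a, chr7:118116123-118116172, minus strand: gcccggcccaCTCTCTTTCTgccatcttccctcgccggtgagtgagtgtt
Rps6, chr4:86857343-86857392, minus strand: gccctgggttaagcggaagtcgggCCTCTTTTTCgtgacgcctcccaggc
Rpl27a, chr7:109519170-109519219, plus strand: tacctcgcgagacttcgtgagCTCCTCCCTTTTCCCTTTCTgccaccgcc
Rps27, chr3:90213624-90213673, minus strand: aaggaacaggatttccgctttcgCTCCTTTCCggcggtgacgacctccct
Rps27l, chr9:66946061-66946110, plus strand: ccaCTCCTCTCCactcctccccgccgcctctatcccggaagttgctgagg
Rpl22l1, chr3:28805483-28805532, plus strand: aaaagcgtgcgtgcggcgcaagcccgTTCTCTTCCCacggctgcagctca
Rpl36al, chr12:69184043-69184092, minus strand: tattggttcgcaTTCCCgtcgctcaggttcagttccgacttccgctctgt
Rpl7l1, chr17:46782632-46782681, minus strand: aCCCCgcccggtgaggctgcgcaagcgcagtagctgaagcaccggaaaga
The longest run covered 20 bases in Rpl27a, 10 in Rps6, Rps15a and Rpl22l1, and 9 in Rps27. In Rpl36al it covered 5 bases and in Rpl7l1 4. Rps27l had a run of 9 bases beginning 22 bases before the annotated start, parted by a single A from another of the same length.

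The table gives no counts. Steps between low FPKM values put the depth at an estimated 20.45 to 21.0 mega-reads a library. This estimate is rough, since it assumes a read length and searches a preset range of depths. At the estimate the values still lay 0.139 to 0.155 from a whole count on average. The deposited column of BAPN replicate 2 equals replicate 1 plus 1 in all 28510 genes with values, so it was left out and the BAPN group has 2 libraries, replicates 1 and 3. BAPN replicate 1 stood apart from the rest on the first principal component, and immunoglobulin genes took 10.5% of its FPKM, against at most 0.0462% in the other libraries. Genes of the mitochondrial genome took 43.6% to 53.3% of the FPKM of vehicle libraries and 31.3% to 40.5% of that of combined libraries. Smooth muscle markers were present in all 12 libraries (Acta2, smooth muscle actin, at 169 to 5130 scaled FPKM), and so were brown adipocyte markers (Ucp1, the uncoupling protein, at 21.2 to 4933).

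In the deposited values, the 90 genes together took 2.18%, 3.18%, 2.83% and 2.31% of all FPKM in the 4 vehicle libraries. They took 2.83%, 3.91% and 4.09% in the fasudil libraries, 5.14% and 3.20% in the BAPN libraries, and 5.22%, 5.63% and 4.89% in the combined libraries. Vehicle and combined libraries did not overlap. This share of the total is set against the share of mitochondrial genes given above, which was lower in the combined group. With only mitochondrial genes left out of the total, the share was 4.66% to 5.64% in the vehicle libraries and 5.80% to 6.92% under fasudil. It was at most 6.74% under BAPN and 7.13% to 8.78% after both. That total keeps the immunoglobulin genes, which took 10.5% of the FPKM of BAPN replicate 1. From here on, FPKM are scaled between libraries by a trimmed mean of log ratios, so that most genes are centred, and levels and differences are on that scale.

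Levels of the single genes differed over more than 2 orders of magnitude. Among the 83 tested genes the vehicle mean started at 8.55 scaled FPKM and had a median of 267, and 52 of the 83 lay from 100 to under 500. Among the highest were Rpl41, a very short basic peptide of the large subunit (chr10:128383983-128385174, minus strand, GRCm39), at 1057 ± 103 (SD, n = 4), and Rpsa, the small-subunit protein also known as the laminin receptor, at 916 ± 25.6. Rps2 at 865 ± 67.0 and Rps15 at 850 ± 77.4 came next, and these last 2 did not differ beyond their spread. The lowest tested genes were Rpl5 at 8.55 ± 1.44, Rpl12 at 8.84 ± 2.01, Rps3a2 at 10.3 ± 12.3, Rps13 at 16.6 ± 3.92 and Rpl7l1 at 21.2 ± 2.51, and the lowest 3 of these did not differ beyond their spread. The order of the 83 genes was similar in every library, with rank correlations of 0.962 to 0.995 across genes between pairs of libraries. These genes are not independent replicates.

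A low value of such a gene need not be a low message. Ribosomal protein genes have many processed copies in the mouse genome, and reads shared with a near-identical copy can be placed on either, so the value of each single gene is uncertain. Of the 83 genes, 47 had a copy with at least 1 FPKM in vehicle, and in 25 the copies held more than 50% of the summed FPKM of gene and copies. Rpl12 (chr2:32851571-32855357, plus strand, GRCm39), a protein of the stalk base, held 8.84 scaled FPKM, while its copy Gm10275 held 357 ± 38.7 (SD, n = 4). Rpl5 (chr5:108048368-108056871, plus strand, GRCm39) held 8.55, while Gm15500 held 281 ± 18.9. Rps23, a protein near the decoding centre, held 46.2 ± 1.89, and the copy Rps23-ps1 held 558. Rplp0 and Rpl41 had less than 0.1% of the sum in copies. Of the FPKM of members and copies together, copies held 28.2% to 30.6% in each vehicle library and 28.1% to 31.0% in each combined library, so the groups overlapped in that share. For 5 members the table's row spans more than 100 kb, and no position is given for those.

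**Figure D1:**
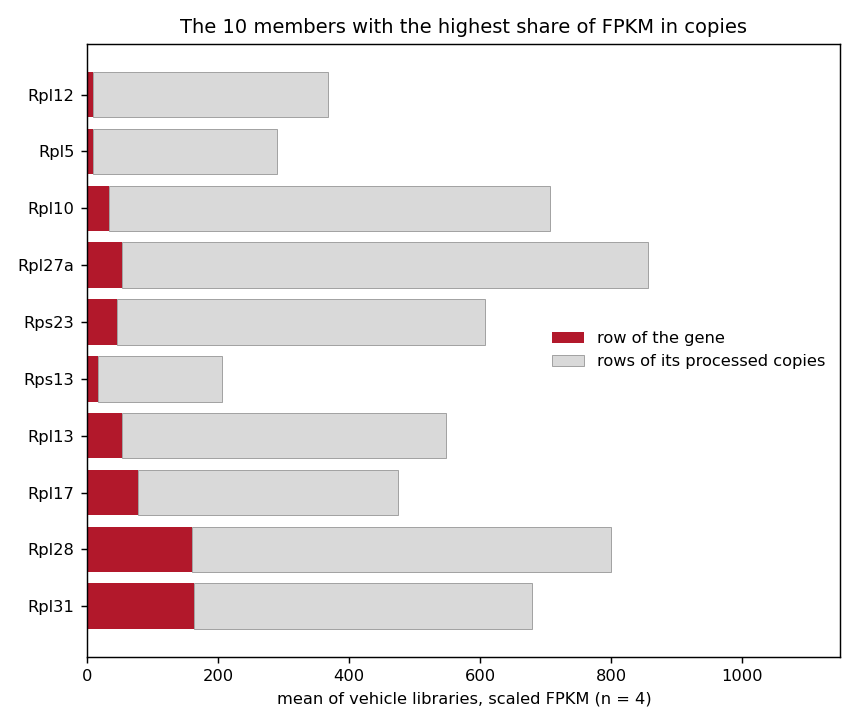
Stacked bars of the mean scaled FPKM of 4 vehicle libraries (horizontal axis) for the 10 tested ribosomal protein genes with the highest share of the sum in processed copies, in the row of the gene (red) and in the rows of its copies (grey). Rpl12 at 8.84 and Rpl5 at 8.55 are the shortest red bars, beside copies at 281 or more.

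The combined treatment was compared with vehicle to ask what the dissection model does to the aorta. Ribosomal protein genes were higher in the combined group almost as a block: 78 of 83 had a positive log2 fold change, where 56.1% of all 13748 genes tested did. Their median log2 fold change was 0.53, against 0.06 over all genes, with the middle of the members between 0.44 and 0.63. By limma's moderated test with Benjamini-Hochberg adjustment over all genes, 3 of 83 rose, Rpl12 and Rps15a among them, and 0 fell, where 1.68% of all genes were called, 0.662% higher and 1.02% lower. At an unadjusted p under 0.05, 65 of 83 were higher and 2 lower, where 12.1% of all genes were higher and 14.4% lower. In 68 of 83 every combined library lay above every vehicle library (13.2% of all genes), and in 1, Rps27l, below (16.6% of all genes). The count of calls depends on the libraries and the scaling. It ranged from 0 to 44 when a library was left out (44 without BAPN replicate 1, with 12.7% of all genes called), and was 67 without scaling (12.2% of all genes). The median of the members stayed between 0.45 and 0.63 when a library was left out. In bulk tissue, more cells of a type rich in these messages and more of them per cell cannot be told apart, nor can fewer cells and less RNA per cell.

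**Figure D2:**
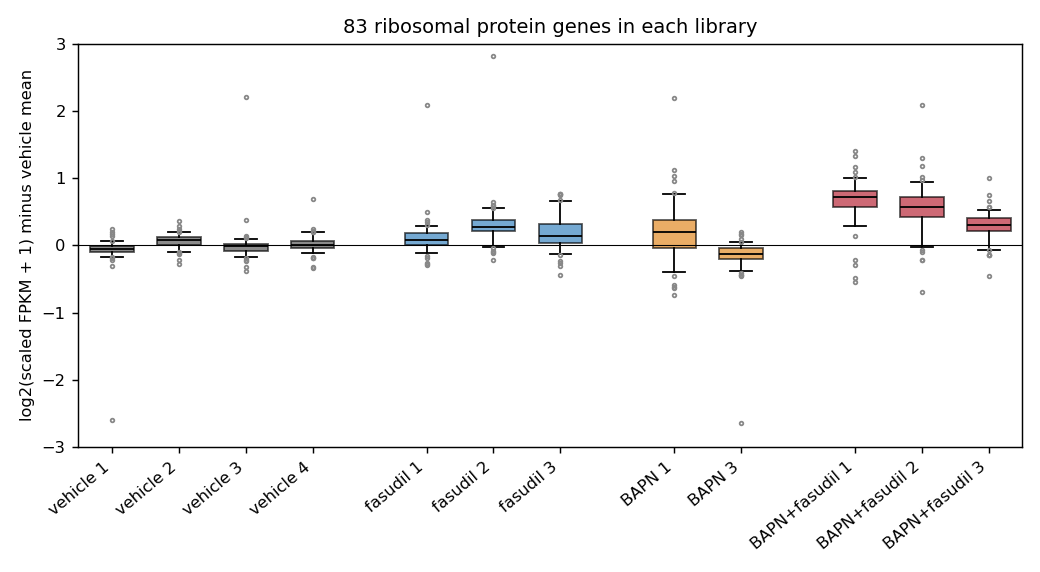
Box plots of 83 ribosomal protein genes in each of 12 libraries. The vertical axis is log2(scaled FPKM + 1) minus the gene's vehicle mean; boxes span the quartiles, whiskers the 5th to 95th percentile and points are genes beyond. Medians are 0.72, 0.56 and 0.30 in the combined libraries, 0.19 and −0.13 in BAPN replicates 1 and 3, and −0.06 to 0.08 in vehicle.

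Of the genes that rose, Rps15a, a small-subunit protein (chr7:117703595-117715411, minus strand, GRCm39), measured 162, 191, 168 and 173 scaled FPKM in vehicle. It measured 197, 212 and 195 under fasudil, 200 and 162 under BAPN, and 282, 262 and 257 in the combined libraries. All 3 combined libraries lay above all 9 others, and the log2 fold change against vehicle was 0.62 (SE 0.13, limma adjusted p = 0.0438).
Rpl12 measured 8.58, 8.53, 11.5 and 6.68 in vehicle, 9.27, 13.2 and 10.4 under fasudil, 14.0 and 10.1 under BAPN, and 19.7, 17.6 and 15.4 in the combined libraries. The groups did not overlap, and the log2 fold change of 0.93 (SE 0.19, limma adjusted p = 0.0438) was among the highest of the members. With the FPKM of processed copies added to each gene, an alternative chosen after the data were seen, 5 members were called, Rpl12, Rpl5, Rps15a, Rps23 and Rps4x. Rpl12 was then at an adjusted p of 0.0499, with a log2 fold change of 0.73. Leaving out a library moved the adjusted p of Rps15a to between 0.0108 and 0.163 and of Rpl12 to between 0.0153 and 0.147. Both calls were lost when any vehicle library, any combined library or fasudil replicate 1 or 2 was left out.

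The members with the highest fold changes that did not pass were Rps3a2, Rps23, Rps6 and Rpl36a. Rps6 (chr4:86772897-86775649, minus strand, GRCm39) measured 129, 135, 148 and 137 in vehicle, 174, 171 and 230 under fasudil, 266 and 135 under BAPN, and 345, 313 and 167 in the combined libraries. The combined libraries lay above vehicle, with replicate 3 well below the other two, and BAPN replicate 3 lay within vehicle. The log2 fold change of 0.93 (SE 0.28) had a limma adjusted p of 0.0804. The copy Rps6-ps4 had means of 343 in vehicle and 569 in the combined group. With copies added, the fold change of Rps6 was 0.78 (SE 0.20, limma adjusted p = 0.0569).
Rps23 measured 46.0, 47.8, 43.6 and 47.3 in vehicle and 93.1, 116 and 66.1 in the combined libraries. BAPN replicate 1, at 102, lay in the range of the combined group, and BAPN replicate 3, at 44.9, in that of vehicle (log2 fold change against vehicle 0.94, SE 0.29, limma adjusted p = 0.0803).
Rps3a2 had the highest fold change, 1.51, and the widest spread. It measured 0.0263, 4.13, 27.8 and 9.06 in vehicle and 15.6, 25.7 and 11.6 in the combined libraries (SE 1.25, limma adjusted p = 0.469). Its vehicle SD on the log2 scale was 2.02, where the median of the members was 0.10. The steadiest gene in vehicle was Rpl35a at 257, 262, 259 and 265, and it measured 401, 350 and 317 in the combined libraries (log2 fold change 0.44, SE 0.14, limma adjusted p = 0.0825).

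Both subunits were shifted to a similar extent. The 49 tested large-subunit genes had a median log2 fold change of 0.52, with 46 positive, and the 34 small-subunit genes one of 0.54, with 32 positive. The mean level of large-subunit genes divided by that of small-subunit genes was 0.845 to 0.863 in the vehicle libraries. It was 0.819 to 0.832 under fasudil, 0.826 and 0.849 under BAPN, and 0.810 to 0.849 in the combined libraries, whose highest value overlaps vehicle. In the stalk, where translation factors bind, Rplp0 measured 458, 542, 520 and 530 in vehicle and 856, 757 and 647 in the combined libraries (log2 fold change 0.55, SE 0.15, limma adjusted p = 0.0619). Rplp1 measured 777, 875, 763 and 803 against 1148, 1207 and 954, without overlap (0.45, SE 0.16, limma adjusted p = 0.106). Rplp2 measured 602, 594, 543 and 697 against 1013, 567 and 580, where only combined replicate 1 lay above vehicle (0.19, SE 0.24, limma adjusted p = 0.634). Rpsa measured 925, 923, 879 and 939 in vehicle and 1442, 1288 and 1072 in the combined libraries, again without overlap (0.46, SE 0.15, limma adjusted p = 0.0912).

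**Figure D3:**
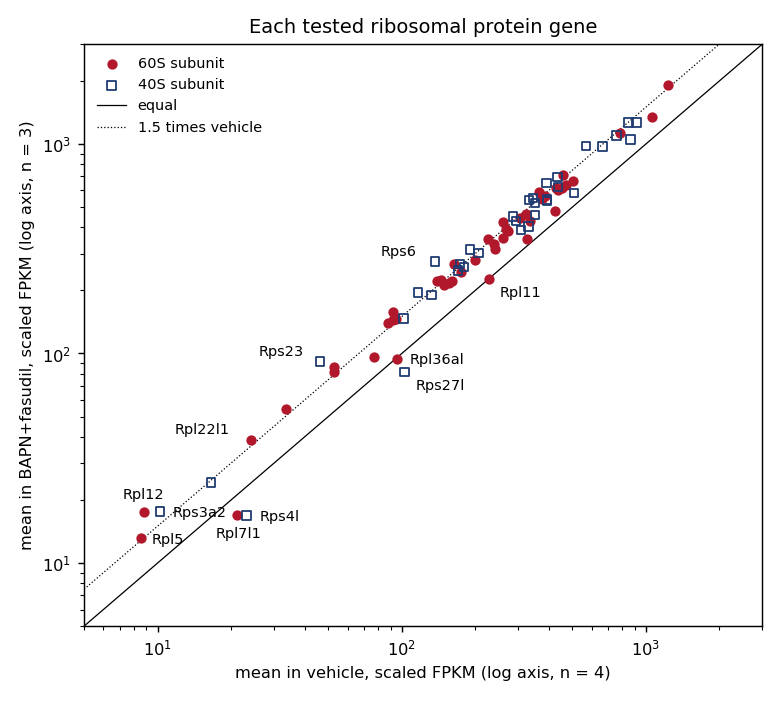
Mean scaled FPKM of each of 83 tested genes in vehicle (horizontal, n = 4) and in the combined group (vertical, n = 3), both on log axes, with filled circles for the 60S and open squares for the 40S subunit. Most points lie near the dotted line of 1.5 times vehicle, while Rps27l, Rps4l, Rpl7l1, Rpl36al and Rpl11 lie on or below the line of equality.

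In the combined group 5 members did not have a positive fold change, and 4 of these 5 were paralogs of a standard ribosomal protein: Rps4l (−0.44), Rps27l (−0.32), Rpl7l1 (−0.30) and Rpl36al (−0.02). The other was Rpl11 (−0.01). None passed the test. Without scaling, the fold changes of Rps27l and Rpl7l1 both turned to 0.06, of Rpl36al to 0.36 and of Rpl11 to 0.38, while that of Rps4l was −0.07. In that setting the median of all genes was 0.35.

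Rps27l, a paralog of Rps27 known in human cells as a target of p53, measured 104, 92.9, 93.0 and 121 scaled FPKM in vehicle (chr9:66853368-66856798, plus strand, GRCm39). It measured 94.3, 99.2 and 91.9 under fasudil, 67.7 and 78.7 under BAPN, and 83.4, 87.4 and 74.0 in the combined libraries. Both groups given BAPN lay below vehicle and fasudil (combined against vehicle −0.32, SE 0.13, limma adjusted p = 0.150; BAPN against vehicle −0.48, SE 0.15, limma adjusted p = 0.119).
Rps27 itself (chr3:90119829-90120958, minus strand, GRCm39) measured 534, 562, 567 and 614 in vehicle, 669, 719 and 857 under fasudil, 731 and 543 under BAPN, and 1140, 1059 and 729 in the combined libraries (0.75, SE 0.19, limma adjusted p = 0.0589). The paralog thus stood at 16.4% to 19.6% of Rps27 in vehicle, 10.7% to 14.1% under fasudil, 9.26% to 14.5% under BAPN and 7.32% to 10.1% in the combined group. Vehicle and combined libraries did not overlap in this ratio.
Rps4l measured 18.3, 24.6, 24.6 and 25.1 in vehicle and 16.2, 13.8 and 20.7 in the combined libraries, which overlap (−0.44, SE 0.16, limma adjusted p = 0.117). Its X-linked partner Rps4x measured 309, 380, 343 and 293 against 597, 551 and 476, which do not (0.71, SE 0.16, limma adjusted p = 0.05001, above the threshold). Rps4l was 5.92% to 8.59% of Rps4x in vehicle, against 2.51% to 4.35% after both drugs. This ratio was 5.46% to 6.54% under fasudil, which overlaps vehicle, and 3.65% to 5.17% under BAPN, which does not.
Rpl7l1, whose product has been placed in ribosome assembly, measured 19.6, 21.8, 18.8 and 24.4 in vehicle and 14.1, 17.9 and 19.1 in the combined libraries, with overlap (−0.30, SE 0.23, limma adjusted p = 0.434). It was 4.03% to 5.28% of Rpl7 in vehicle, against 1.96% to 3.27% after both drugs. Under fasudil it was 4.01% to 5.71% of Rpl7 and under BAPN 2.91% to 4.34%, both of which overlap vehicle.
Rpl36al measured 95.7, 90.9, 95.4 and 99.4 in vehicle and 82.2, 110 and 90.7 in the combined libraries, while Rpl36a measured 100.4, 78.5, 95.7 and 92.5 against 172, 186 and 115. The paralog was 95.4% to 116% of its partner in vehicle, against 47.7% to 78.6% after both drugs, so the ratios did not overlap. It was also below vehicle after each drug alone, at 62.8% to 87.3% under fasudil and 86.4% to 92.1% under BAPN. These ratios leave out the copy Rpl36a-ps2, which lay above the Rpl36a row, with means of 185 in vehicle and 297 in the combined group.

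Rpl5 and Rpl11, partners in a particle with ribosomal RNA, did not share a fold change. Rpl5 measured 9.82, 8.34, 9.43 and 6.61 in vehicle and 12.5, 15.2 and 11.8 in the combined libraries, without overlap (0.57, SE 0.17, limma adjusted p = 0.0795). Rpl11 measured 202, 251, 240 and 218 against 250, 223 and 206, which overlap (−0.01, SE 0.15, limma adjusted p = 0.983). The difference between the fold changes was not tested. Rpl27a, whose run of C and T is printed above, measured 50.1, 48.4, 52.5 and 60.4 in vehicle and 97.9, 90.5 and 69.9 in the combined libraries, again without overlap (0.68, SE 0.15, limma adjusted p = 0.05001). Its copy Gm7536 had means of 800 in vehicle and 1128 in the combined group. With copies added, the fold change of Rpl27a was 0.49 (SE 0.15, limma adjusted p = 0.0781).

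Rpl22l1 was the exception among the expressed paralogs. It measured 21.7, 24.6, 24.3 and 25.6 in vehicle, 19.4, 24.8 and 38.5 under fasudil, 50.3 and 23.5 under BAPN, and 40.6, 43.2 and 32.5 in the combined libraries (combined against vehicle 0.66, SE 0.27, limma adjusted p = 0.150). Rpl22, whose protein is known to repress Rpl22l1, measured 230, 255, 236 and 237 in vehicle and 381, 343 and 281 in the combined libraries (0.47, SE 0.14, limma adjusted p = 0.0778). The ratio of Rpl22l1 to Rpl22 was 9.43% to 10.8% in vehicle, against 10.7% to 12.6% after both drugs, with overlap. It was 7.37% to 15.2% under fasudil and 10.1% to 18.8% under BAPN. No test was made of the difference between any paralog and its partner. Rpl3l, which replaces Rpl3 in heart and skeletal muscle, was at or below 1.89 scaled FPKM in every library, and Rpl10l and Rpl39l, known from the testis, at or below 0.324.

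**Figure D4:**
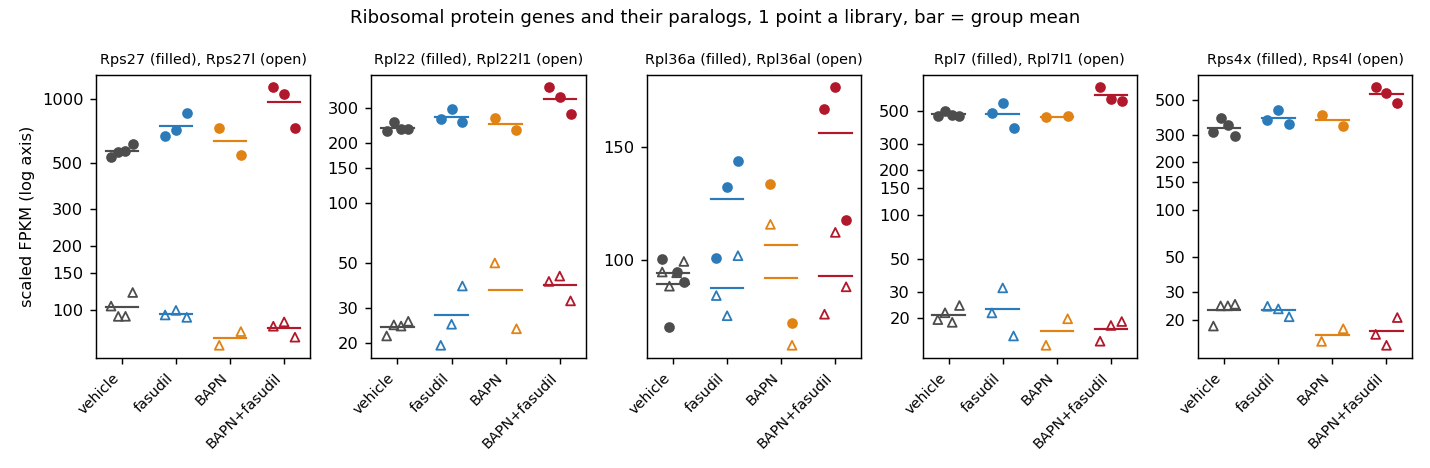
Scaled FPKM on a log axis in each library for 5 paralogs (open triangles) and their partners (filled circles), by group, with bars at group means. In vehicle Rps27l is at 92.9 to 121, against 74.0 to 87.4 after both drugs, while Rps27 is at 534 to 614 and 729 to 1140.

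Against BAPN alone, which asks what fasudil adds on top of BAPN, all 83 members had a positive log2 fold change in the combined group (56.9% of all genes), with a median of 0.50 against 0.04 over all genes. By limma 0 of 83 passed the adjusted threshold, where 0.00727% of all genes were called. At an unadjusted p under 0.05, 55 were higher and 0 lower, where 2.54% of all genes were higher, 0.822% lower and 3.36% either. In 54 members every combined library lay above both BAPN libraries (8.57% of all genes), and in 0 below (3.19%). The alternative settings run also gave 0 calls in each case. The highest fold changes were those of Rps3a2, whose groups overlap (1.73, SE 1.49, limma adjusted p = 1.00), and of Rps15, 839 and 660 in BAPN against 1394, 1373 and 1036 (0.75, SE 0.20, limma adjusted p = 1.00). Rpsa measured 794 and 728 in BAPN, below all its combined values (0.73, SE 0.18, limma adjusted p = 1.00). Without BAPN replicate 1 the median was 0.66, and without replicate 3 it was 0.36.

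Against fasudil alone, 79 of 83 were positive (52.8% of all genes) and the median was 0.35, against 0.03 over all genes. By limma 0 passed, where 0.0218% of all genes were called (0.0145% higher), and 23 were higher and 1 lower at an unadjusted p under 0.05, where 10.6% and 9.14% of all genes were. Under array weights, which down-weight variable libraries, 9 were called (8 higher, 1 lower) where 31.9% of all genes were, and the median of the members was 0.16. Rps4l had the lowest fold change (−0.44, SE 0.17, limma adjusted p = 0.215). These comparisons share the combined libraries with the comparison against vehicle and are not independent of it.

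For BAPN alone the members were centred near all genes. Against vehicle, 51 of 83 members were positive (51.7% of all genes) and the median was 0.03, against 0.02 over all genes. By limma 0 members passed, where 0% of all genes were called, and 0 were higher and 3 lower at an unadjusted p under 0.05 (7.14% and 13.4% of all genes, 20.6% in either direction). The 2 libraries differed: 59 of the 83 genes lay above their vehicle mean in BAPN replicate 1 and 11 in replicate 3. Without replicate 1 the median was −0.13, and without replicate 3 it was 0.19 with 2 calls, where 14.3% of all genes were called. The scaling also moved it: the median was 0.14 with upper-quartile scaling (all genes 0.10), 0.46 with scaling to nuclear genes (all genes 0.36) and 0.54 without scaling (all genes 0.43). With quantile normalization it was 0.45 with 79 of 83 members positive, where the median of all genes was −0.02.

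Fasudil alone gave a positive fold change in 75 of 83 members (46.3% of all genes), with a median of 0.18 against −0.02 over all genes. By limma 0 passed, where 0% of all genes were called, and 1 was higher and 0 lower at an unadjusted p under 0.05 (4.18% and 3.80% of all genes, 7.99% in either direction). Without fasudil replicate 2 the median was 0.11 with 66 positive. It was 0.41 without scaling (all genes 0.16), 0.36 with scaling to nuclear genes (all genes 0.12) and 0.35 with quantile normalization (all genes −0.0031). The fasudil libraries lay above all vehicle libraries in 26 members (4.87% of all genes) and below in 0 (6.19%). Rpl27, a large-subunit protein, measured 88.4, 88.0, 103 and 98.4 in vehicle and 134, 123 and 161 under fasudil (0.55, SE 0.27, limma adjusted p = 0.624). The difference between the effect of fasudil on top of BAPN and its effect on its own, fitted as an interaction, had a median of 0.30 over the members and 0.07 over all genes. Such a shift was not particular to the members. The median was 0.26 in mitochondrial ribosomal protein genes (71 of 79 positive) and 0.25 in translation factors and other TOP messages (26 of 26 positive). In the lists of ribosome biogenesis and of mTORC1 and other regulators, described below, it was 0.18 and 0.08. By limma 0 members passed (0.00727% of all genes), and 4 were higher at an unadjusted p under 0.05 (3.16% of all genes, 5.27% in either direction). The highest interactions were those of Rplp2 (0.69, SE 0.37, limma adjusted p = 0.837) and Rps20 (0.66, SE 0.26, limma adjusted p = 0.837). Of the other scalings 3 turned the sign of the members' median (upper-quartile scaling did not), and the median of all genes moved with it in 2 of these 3. The members' median was −0.051 without scaling (all genes −0.22), −0.10 with scaling to nuclear genes (all genes −0.26) and −0.046 with quantile normalization (all genes 0.04). The members thus lay above all genes by 0.23 in the scaling used here, by 0.17 without scaling and by 0.16 with nuclear scaling, and their difference from all genes was −0.09 with quantile normalization.

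Against vehicle, the genes for the mitochondrial ribosome had the opposite sign in the combined group. Of 83 such genes 79 were tested in the combined group against vehicle. By limma 0 rose and 2 fell, 71 were lower at an unadjusted p under 0.05, and the median log2 fold change was −0.68. Of all genes, 0.662% rose and 1.02% fell, and 14.4% were lower at that unadjusted p. Mrps33 measured 64.8, 50.4, 46.9 and 62.4 scaled FPKM in vehicle and 32.3, 31.9 and 34.7 in the combined libraries (−0.74, SE 0.15, limma adjusted p = 0.0440). Mrps6 measured 34.2, 30.3, 37.3 and 35.8 against 24.2, 23.2 and 23.7 (−0.52, SE 0.11, limma adjusted p = 0.0451). Neither overlapped between the groups. Under BAPN alone the mitochondrial list had a median of −0.77, where that of the cytosolic genes was 0.03, and under fasudil alone −0.16, where that of the cytosolic genes was 0.18. The signs were not opposed in every comparison. In the combined group against BAPN alone, 67 of the 79 were positive, with a median of 0.12, where that of the cytosolic genes was 0.50. Against fasudil alone the 2 medians were −0.51 and 0.35. The summed brown adipocyte markers moved with the mitochondrial list: 6783 to 11523 in vehicle, 4103 to 8187 under fasudil, 648 and 3445 under BAPN, and 1985 to 2532 in the combined group. Of these 10 markers, 3 fell and 0 rose by limma in the combined group (1.02% and 0.662% of all genes). None was at 0, and their part in the result was not tested.

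**Figure D5:**
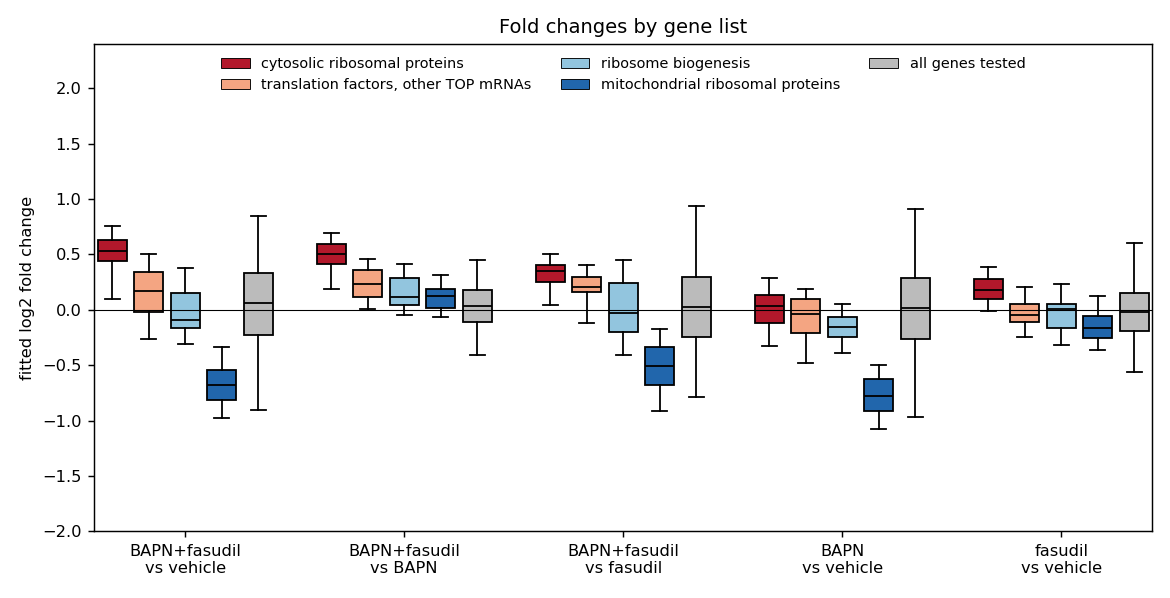
Fitted log2 fold changes (vertical axis) of 4 gene lists and of all genes tested, in 5 comparisons. Boxes span the quartiles with the median as a line, whiskers the 5th to 95th percentile. In the combined group against vehicle the medians are 0.53 for cytosolic and −0.68 for mitochondrial ribosomal proteins, 0.17 for translation factors and other TOP messages, and −0.09 for ribosome biogenesis.

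Genes that work with the ribosome had medians nearer to that of all genes. Of 26 translation factors and other genes with TOP messages, 0 passed by limma in the combined group against vehicle, 8 were higher and 1 lower at an unadjusted p under 0.05, and the median was 0.17. Rack1, a scaffold protein bound to the small subunit, had means of 177 in vehicle and 288 in the combined group (0.69, SE 0.16, limma adjusted p = 0.0511). Pabpc4, a poly(A)-binding protein, had 58.8 and 39.3 (−0.57, SE 0.14, limma adjusted p = 0.0545). Of 35 ribosome biogenesis genes, 0 passed, 2 were higher and 0 lower at an unadjusted p under 0.05, and the median was −0.09. Nop56, a core protein of the small nucleolar particles that methylate ribosomal RNA, had 17.3 and 25.7 (0.55, SE 0.12, limma adjusted p = 0.05001, above the threshold). Of 24 genes of mTORC1 and other regulators, 0 passed, 3 were higher and 2 lower at an unadjusted p under 0.05, and the median was −0.09. For comparison with these 3 lists, 1.68% of all genes passed, and 12.1% were higher and 14.4% lower at that unadjusted p. The kinase gene Mtor had 16.1 in vehicle and 7.22 in the combined group (−1.04, SE 0.24, limma adjusted p = 0.0511), and Deptor, which encodes an inhibitor of that kinase, 11.3 and 5.25 (−0.96, SE 0.22, limma adjusted p = 0.0511).

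Pseudogenes of ribosomal proteins were also higher on balance. Of 301 such rows 53 were tested, and in the combined group 2 rose and 0 fell by limma (0.662% and 1.02% of all genes). Of the 53, 40 were positive (56.1% of all genes), with a median log2 fold change of 0.38. Rps15a-ps7 had means of 70.8 in vehicle and 121 in the combined group (0.78, SE 0.17, limma adjusted p = 0.0496), and Rpl17-ps3 223 and 374 (0.73, SE 0.15, limma adjusted p = 0.0449). The 25 members with most of their sum in copies were positive in 25 cases, with a median of 0.62. The 47 members with under 5% in copies were positive in 42, with a median of 0.51. Grouped by the run at the start, 34 genes with a run of at least 8 bases had a median of 0.55, and 27 without 0.51.

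Markers of other cell types also moved between these groups. Of 10 macrophage markers, 6 rose in the combined group by limma, where 0.662% of all genes did, and none was at 0. Their summed level was 144 to 183 scaled FPKM in vehicle, 135 to 207 under fasudil, 325 and 738 under BAPN, and 336 to 1032 in the combined group. Fibroblast markers summed to 303 to 636 in vehicle, 274 to 640 under fasudil, 814 and 1057 under BAPN, and 943 to 1200 in the combined group. There 0 of 6 passed (1.68% of all genes) and all 6 were positive (56.1% of all genes). In BAPN alone, macrophage and fibroblast markers had medians of 1.57 and 0.91, and the ribosomal protein genes 0.03. Smooth muscle markers summed to 1536 to 4786 in vehicle, and to 717, 435 and 4432 in fasudil replicates 1, 2 and 3. They summed to 2028 and 4681 under BAPN and 1469 to 9179 in the combined group. Their median log2 fold change was −1.11 in fasudil against vehicle and 1.48 in the combined group against fasudil. Haemoglobin genes took 0.265% to 0.710% of the FPKM in vehicle, 0.240% to 1.11% under fasudil, 0.628% and 0.928% under BAPN, and 1.35% to 3.45% in the combined group. In combined replicates 1, 2 and 3 the ribosomal protein medians were 0.72, 0.56 and 0.30, the haemoglobin shares 1.35%, 3.12% and 3.45%, and the summed macrophage markers 1032, 336 and 547. The part of these cells in the result was not tested.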

How the data were processed

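RNA from mouse aorta was sequenced, and the authors deposited 1 table of FPKM per gene, as its values and column headers show, with the length of the longest transcript as another deposited column. The submitters' processing notes name Bowtie2, RSEM, DESeq2, GRCm39 and mm10 without roles. Positions in the table were taken as GRCm39, since 2 of 85 members overlapped their RefSeq position on GRCm38.p6. Strand handling is not given in the sources used here. 1 per-sample column was left out (BAPN replicate 2). FPKM were scaled by an unweighted trimmed mean of log ratios (30% and 5% trimmed), the filter kept genes reaching 1 FPKM in 2 libraries or more, and the test ran on log2(FPKM + 1), which understates changes of low genes. The test was limma 3.58.1 (R 4.3.3; trend, robust), with 4 groups in 1 fit and Benjamini-Hochberg adjustment over all 13748 genes; a call is an adjusted p under 0.05. It was first tested on simulated data. The depth of each library is an estimate, so no counting intervals are given. Named members are those called, those with the highest and lowest fold changes, levels and vehicle SD, paralogs with partners, and Rplp0, Rplp1, Rplp2, Rpsa and Rps6. Genes of other lists were named if called, or else by smallest p. Array weights, scalings, filters, pseudocounts and libraries left out were tried as alternatives. The scaling to nuclear genes left out mitochondrial, immunoglobulin and haemoglobin genes. The members and lists were chosen with earlier results of these data known. Some members are not reported here. Figures were drawn with matplotlib.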

Additional observations from a re-analysis of the deposited data

Results flagged for a closer look

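Among 42 values tested for a vehicle library far from the other 3, 2 were picked out, where chance picks out about 1 in 20. Rps20 measured 117 scaled FPKM in vehicle replicate 2 and 95.6 to 98.8 in the other vehicle libraries. Rps4l measured 18.3 in vehicle replicate 1 and 24.6 to 25.1 in the others, and this low value is the one that overlaps the combined group.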

How the results depend on the processing

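The number of ribosomal protein genes called in the combined group against vehicle was 3, and it varied widely. It was 67 without scaling (12.2% of all genes called), 51 with scaling to nuclear genes (5.77%), 41 with quantile normalization (2.47%) and 10 with upper-quartile scaling (3.05%). It was 5 and 6 with pseudocounts of 0.1 and 5 (2.12% and 2.23%), 0 with no filter (0.0801%), 14 with a filter at 5 FPKM (7.92%), 53 with array weights (52 higher, 1 lower; 37.8%), 16 with BAPN replicate 2 recovered from the authors' group mean (6.95%), and 35 with only the 2 groups in the fit (12.8%). Alternatives chosen after the data were seen gave 5 with copies added and 1 to 9 with another reference library for scaling (Vehicle 4 gave 5, Fasudil 1 gave 9, BAPN 1 and BAPN_Fasudil 1 gave 1 each). Leaving out a library gave 0 to 44 calls: 44 without BAPN replicate 1 (12.7%), 42 without BAPN replicate 3 (12.0%), 5 without fasudil replicate 3 (2.93%), and 0 without any other. The cause was not tested. The median of the members was positive in each of these settings, from 0.37 to 0.91. Against fasudil alone array weights gave 9 calls, where 31.9% of all genes were called. In BAPN against vehicle the recovered replicate 2 gave 1 call (7.85% of all genes), and leaving out a library 0 to 2 (14.3% of all genes without BAPN replicate 3). The median of the interaction turned negative without scaling (−0.051), with quantile normalization (−0.046) and with scaling to nuclear genes (−0.10), where the medians of all genes were −0.22, 0.04 and −0.26. Libraries with the same replicate number did not deviate together as a rule (15 pairs, r from −0.49 to 0.21, 3 over 0.1). With so few libraries in a group, this check cannot exclude that the numbers mark a pairing. With the replicate number as a block 0 members were called. The estimated depth limits genes near 1 FPKM. Most tested members exceed 100, but 17 of the 83 had a vehicle mean under 100, the lowest 8.55 scaled FPKM. Rps3a2 lay below 1 FPKM in a vehicle library.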
